A study of Bos taurus with 8 samples.

Results

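The interstitial collagens described here are the genes for the fibril-forming chains COL1A1, COL1A2, COL3A1, COL5A1 and COL5A2, the type VI chains COL6A1, COL6A2 and COL6A3, and the fibril-associated collagens COL12A1 and COL14A1. They were picked by name as the main collagens of connective tissue between cells, and each matched a single gene, so that they made up 10 of the 21880 genes counted. Raw unique molecular identifiers (UMIs, 1 per captured transcript) of each gene were summed per donor animal, cell type and Timepoint, and levels are given as CPM, the UMIs of a gene per 1000000 UMIs of that sum.

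Collagen is the main protein of the extracellular matrix of skeletal muscle, where it sheathes fibres and bundles and carries force. Type I and type III chains build the bulk fibrils, type V chains sit in the fibril core and limit its diameter, type VI chains form a beaded network close to cells, and types XII and XIV lie on the fibril surface. In muscle these proteins are made largely by fibroblast-like cells, among them fibro-adipogenic progenitors (FAPs), which can also become adipocytes, whereas satellite cells (SCs) are the stem cells that form new fibres.

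The study followed cells from the semitendinosus muscle of 10 Belgian Blue cattle, 5 calves and 5 adults, by single-cell RNA sequencing through serum-free culture (SFGM). Timepoint 1 held cells straight from collagenase-digested muscle (10 donors), Timepoint 2 the unsorted adherent cells after 72 h on fibronectin (passage 0, P0, 9 donors; the sample labels also name sorted SCs and FAPs there, and the cells are taken as unsorted after the methods), and Timepoints 3, 4 and 5 the cultures at passages 2, 5 and 8 (P2, P5, P8). After P0 each donor was carried in 1 kind of culture: unsorted on fibronectin (donors 1, 2 and 9), sorted SCs on laminin-521 (donors 5, 6 and 10), or sorted FAPs on a collagen I coating (donors 4, 7 and 8). Culture kind, coating and donor therefore cannot be told apart after P0, and since each Timepoint has 1 deposited count matrix of pooled donors, neither can Timepoint and library. The labels list a second run for Timepoints 2, 3 and 4 with no matrix of its own, taken here as further sequencing of the same library.

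The 5 matrices, here called libraries, held 36129 cells with a donor and a cell type label, and between 20977722 and 252316585 UMIs per library. The median depth was 4184 UMIs per cell in muscle and 18340 to 27239.5 in culture, so the muscle values carry more counting error. The deposited cell types were used as given, and each type expressed its own markers, with the B cell marker MS4A1 at 0 in lymphocytes as the exception. Among the cells, 129 barcode sequences occurred in more than 1 library. Donors are separate animals and were the replicates, and a gene was called changed at an edgeR adjusted p below 0.05 with an absolute log2 fold change (log2FC) above 1.

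In muscle, collagen transcripts came largely from FAPs. FAPs were 28.01% of the cells and held 36.82% of all UMIs, and they held 86.94% of the UMIs of the 10 genes. Tenocytes, the tendon fibroblasts, added 6.565% of the UMIs of these genes from 0.5233% of the cells. The 10 genes together took 1.34% to 3.30% of all UMIs of FAPs across the 10 donors (median 2.09%). The same sum had a donor median of 0.252% in smooth muscle and mesenchymal cells (SMMCs), 0.116% in SCs, 0.0218% in vascular endothelial cells (VECs), 0.0195% in lymphocytes and 0.00727% in monocytes/macrophages. The lowest FAP donor lay above the median of each of these types. Cell types were defined from these same transcripts, so the order of types is a description without a test.

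**Figure D1:**
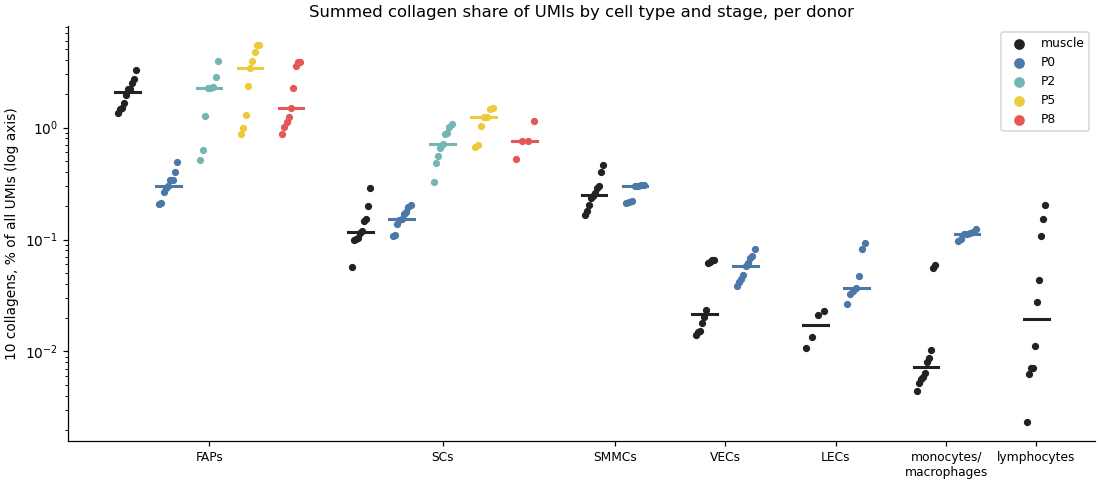
Share of all UMIs taken by the 10 collagen genes together (percent, log axis) for each donor, by cell type and stage, with the donor median as a bar. FAPs had a median of 2.09% in muscle, 0.303% at P0 and 3.39% at P5, while SCs had 0.116% in muscle and 1.24% at P5. The P5 medians pool cultures that differ: FAPs had 5.43% in sorted FAP, 3.39% in unsorted and 1.00% in sorted SC cultures. The SCs of sorted SC cultures had a median of 1.46%, above that of the FAPs beside them. In donor 10 the order was reversed, at 1.242% in SCs and 1.294% in FAPs.

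The 23 tenocytes, too few for a value per donor, were summed over 6 donors. Their COL1A1 level was 26400 CPM (95% Poisson interval 25560 to 27260) and their COL3A1 level 35070 CPM (34100 to 36060), covering counting error only. COL12A1, a collagen abundant in tendon and ligament, reached 838.5 CPM (694.6 to 1003) in them, against a donor median of 51.4 CPM in muscle FAPs.

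Type I and type III transcripts were abundant in muscle FAPs of every donor. COL1A1, the alpha 1 chain of type I collagen, ran from 1771 to 6155 CPM with a median of 3448, and COL1A2, its partner chain, from 2751 to 7519 with a median of 4586. COL3A1, the chain of the thin reticular fibrils, ran from 5408 to 16130 with a median of 9602. Among the minor fibrillar chains, COL5A1 ran from 681.0 to 1118 (median 874.5) and COL5A2 from 130.1 to 266.7 (median 213.8). Of the type VI chains, COL6A1 lay at 529.4 to 714.3 CPM and COL6A2 at 471.6 to 843.0, and COL6A3 ranged from 193.5 to 599.0. COL12A1 lay between 44.4 and 85.6 CPM and COL14A1 between 190.7 and 451.7.

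**Figure D2:**
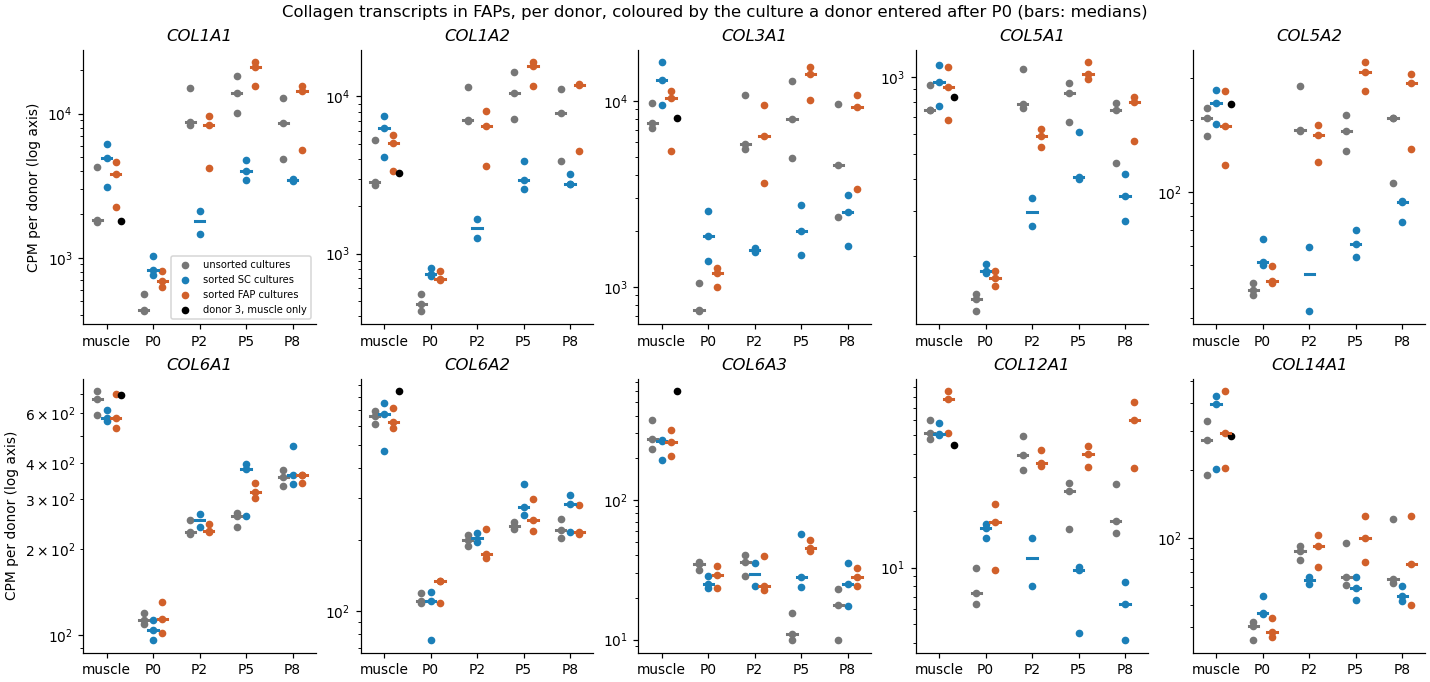
Level of each of the 10 collagen genes in FAPs (CPM, log axis) for every donor at muscle, P0, P2, P5 and P8, with points coloured by the culture of the donor. COL1A1 had medians of 3448, 688, 8338, 13820 and 5625 CPM in that order, whereas COL6A3 had 265, 29.2, 31.8, 27.96 and 24.2. From P2 on these medians pool cultures that differ. At P5 and P8 the COL1A1 medians were 21150 and 14400 CPM in sorted FAP, 13820 and 8685 in unsorted, and 4023 and 3474 in sorted SC cultures.

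After 72 h in culture, all 10 collagen genes were lower in FAPs, and for each of them the highest P0 donor lay under the lowest muscle donor. COL1A1 ran from 424.1 to 1028 CPM at P0 (median 687.7, n = 9), COL1A2 from 429.1 to 812.6 (median 687.6) and COL3A1 from 738.6 to 2551 (median 1195). Their log2FC against muscle were -2.24 (SE 0.28, adjusted p = 5.8e-07), -2.72 (SE 0.22, adjusted p = 3.8e-10) and -2.79 (SE 0.27, adjusted p = 1.2e-08), by edgeR's quasi-likelihood test with Benjamini-Hochberg adjustment over 9208 genes. COL5A1 fell by 2.37 and COL5A2 by 2.07 on the log2 scale, to medians of 163.5 and 42.8 CPM. COL6A1 fell by 2.36 (SE 0.07, adjusted p = 1.6e-19) to a median of 112.7 CPM and COL6A2 by 2.43 to 110.6 CPM.

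COL6A3, the large chain that joins the other type VI chains in 1 monomer, had the lowest log2FC of the 10, at -3.19 (SE 0.16, adjusted p = 1.8e-14), with P0 levels of 23.3 to 36.0 CPM. COL12A1 had a log2FC of -2.03 (SE 0.22, adjusted p = 3.1e-08) and P0 levels of 6.43 to 21.6 CPM. COL14A1, a collagen of the fibril surface, had a log2FC of -2.77 and levels of 34.8 to 54.8 CPM. Each gene was lower at P0 in 9 of 9 donors followed through both stages. In this comparison 22.5% of all genes tested were called lower, and the median log2FC was -2.4 over the collagens and 0.03 over all genes. Markers moved with the fall: in the same FAP sums, tenocyte markers (TNMD, SCX, MKX, THBS4 and COMP) ran from 214.2 to 852.4 CPM in muscle and from 4.64 to 19.1 CPM at P0, and myocyte markers had medians of 744.4 and 1.54 CPM. The FAP markers themselves had medians of 24160 and 3506 CPM, and the part of any of these in the fall was not tested. The 10 calls were present under each alternative setting run, including sums thinned to the smallest total, and library and stage cannot be told apart.

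**Figure D3:**
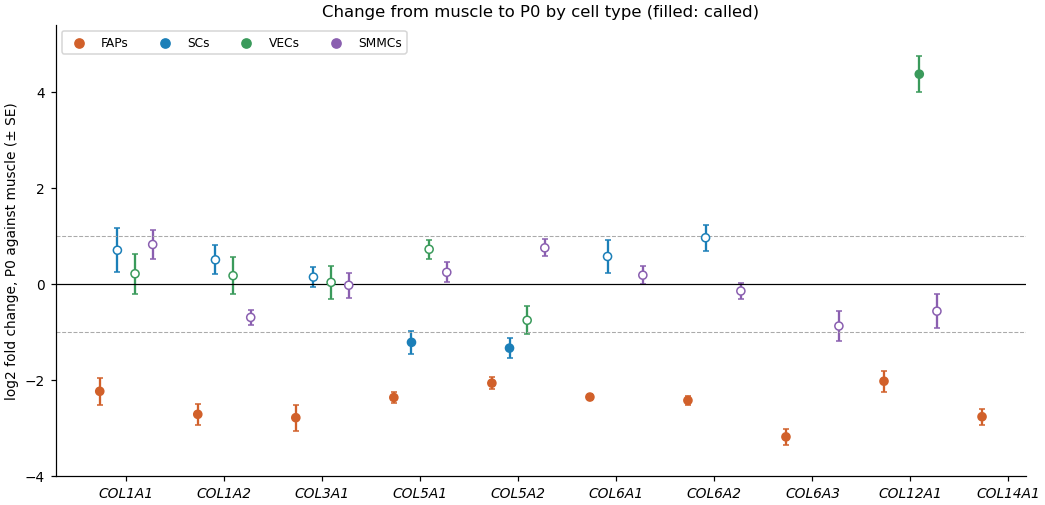
Log2FC from muscle to P0 with its standard error for each collagen gene in FAPs, SCs, VECs and SMMCs, with filled points for called genes. In FAPs the values lie between -3.19 and -2.03, whereas in SCs they lie between -1.34 and 0.96, and COL12A1 in VECs stands at 4.37.

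The same direction was seen in the shares of single cells, which like CPM are relative to all UMIs. Depth per cell differed, with a median of 4184 UMIs in the muscle library and 19375 in that of P0. COL1A1 had 32220 UMIs in 1231 muscle FAPs and 97353 UMIs in 5756 P0 FAPs, so its UMIs per cell fell by less than its share. The 10 genes took a median of 1.86% of the UMIs of a muscle FAP (5th to 95th percentile 0.583% to 5.74%) and 0.291% of those of a P0 FAP (0.0676% to 0.672%). When every cell was thinned to 1500 UMIs, leaving out 23 and 11 shallower FAPs, COL3A1 was seen in 98.34% of muscle FAPs and 77.2% of P0 FAPs. COL6A3 was seen in 28.81% and 4.212% of the same cells. For comparison, COL3A1 was seen in 9.56% of muscle VECs and 18.89% of P0 VECs at that depth.

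In SCs the fibrillar type V chains were lower at P0, and the type I and type III chains were not called. SCs of muscle had 12.2 to 227 CPM of COL1A1 (median 36.2) and SCs at P0 had 56.0 to 219.5 (median 130.3), with overlapping ranges and a log2FC of 0.70 (SE 0.46, adjusted p = 0.18). COL3A1 gave 360.3 to 1647 CPM in muscle and 627.4 to 1238 at P0, with a log2FC of 0.14 (SE 0.21, adjusted p = 0.57). The type V chains fell: COL5A1 went from a median of 223.7 to 96.3 CPM (log2FC -1.22, SE 0.24, adjusted p = 0.00015) and COL5A2 from 54.9 to 24.0 (log2FC -1.34, SE 0.21, adjusted p = 2.7e-06), both lower in 9 of 9 donors. These 2 of 7 genes tested stand beside 18.5% of all genes called lower, and 15.8% were called higher. COL6A2 had a log2FC of 0.96 (adjusted p = 0.0027), just under the limit of 1. Which collagens were called depended on the settings. With donor as a block, COL1A1 was called higher (1.08, adjusted p = 0.041), and DESeq2 (1.06) and RLE factors (1.05) called COL6A2 higher. COL6A3, COL12A1 and COL14A1 had too few counts in SCs to pass the filter. Without it COL6A2 (1.32), COL12A1 (2.2) and COL14A1 (1.24) were called higher, and COL5A1 (-0.86) and COL5A2 (-0.99) were no longer called.

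Markers moved with the change in SCs. Their summed FAP markers (PDGFRA, DCN, LUM, DPT and SCARA5) ran from 58.8 to 880.9 CPM in muscle (median 96.3) and from 979.0 to 2015 CPM at P0 (median 1426), without overlap. Their summed SC markers had a median of 1624 CPM in muscle and 177.5 CPM at P0. The part of these markers in the values for SCs, and in the comparison of SCs with FAPs, was not tested.

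The change from muscle to P0 was then compared directly between FAPs and SCs by an interaction term over 8751 genes. It was more negative in FAPs for 6 of the 7 collagens that passed the filter in SCs alone, where 12.4% of all genes were called in that direction. The difference in log2FC was -3.17 (SE 0.54, adjusted p = 1.2e-05) for COL1A1, -3.16 (SE 0.35) for COL3A1 and -3.60 (SE 0.25) for COL6A2. In muscle SCs COL6A1 and COL6A2 had only 84 UMIs each over all donors. COL5A1 gave -1.38 (SE 0.27, adjusted p = 9.6e-05). COL5A2, at -0.94 (SE 0.23, adjusted p = 0.0011), was under the limit on size. COL6A3, COL12A1 and COL14A1 were below the filter in SCs alone, with 15, 13 and 23 UMIs in all muscle SCs together, so their differences are not counted here.

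In VECs, COL12A1 transcripts were seen mainly at P0. COL12A1 was at 0 to 29.2 CPM in VECs of muscle (median 5.13) and at 90.9 to 279 CPM at P0 (median 172.7), so the ranges did not overlap. Muscle VECs held 0 to 7 UMIs of it per donor, 33 in all, so it passed the filter on low counts through P0, where it was high. Its fitted log2FC of 4.37 (SE 0.38), higher in 9 of 9 donors, is therefore given as a description, and 15.6% of all genes were called higher. Summed over donors, it was at 8.07 CPM in muscle (95% Poisson interval 5.55 to 11.3) and 175.3 CPM at P0 (167.9 to 182.9), covering counting error only. In the same VEC sums, glial markers ran from 288.3 to 859.6 CPM in muscle and from 16.2 to 53.96 CPM at P0, and myocyte markers from 189.5 to 597.4 and from 0 to 3.64 CPM. SC markers had medians of 103.8 and 15.4 CPM and FAP markers of 227.0 and 387.0 CPM. The VEC markers themselves ran from 2451 to 3304 and from 1695 to 2639 CPM, and the part of these lists was not tested. Of the other 5 collagens tested in VECs none was called with edgeR, 2 had an unadjusted p below 0.05 and DESeq2 called 0. At 1500 UMIs per cell, COL12A1 was seen in 0.4296% of muscle VECs and 18.17% of P0 VECs (Wilson 95% interval 15.7% to 20.94%). That interval covers the sampling of cells only, not the spread between donors. The unthinned shares were 2.401% and 62.82%. At P0 it was seen in 6.575% of SMMCs, 3.243% of SCs, 2.628% of FAPs, 1.19% of lymphatic endothelial cells and 1.429% of monocytes/macrophages at the same depth. COL5A1 in VECs had a log2FC of 0.72 (adjusted p = 0.0026) and COL5A2 one of -0.76 (adjusted p = 0.02), both under the limit on size.

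Collagen UMIs in the other cell types may be their own or free RNA of other cells. They are given here per UMI of another gene of FAPs. In muscle, FAPs held 0.2202 UMIs of COL1A1 per UMI of decorin (DCN, a FAP marker). This and the ratios that follow are of UMIs summed over donors, and small sums let 1 donor weigh heavily. The ratio was 0.1937 in VECs, 0.2269 in lymphocytes, 0.4174 in SCs and 1.822 in SMMCs. It was 0.3846 in monocytes/macrophages, where donor 5 stood at 0.9806 and the median of 7 donors was 0.1111, and 0.06275 in neutrophils of 1 donor with 16 UMIs of COL1A1. At P0 the same ratio was 0.2493 in FAPs, 0.2159 in VECs, 0.2009 in monocytes/macrophages, 0.2254 in lymphatic endothelial cells, 0.122 in SCs and 0.8398 in SMMCs. COL3A1 per DCN in muscle was 0.5967 in FAPs, 4.101 in SCs and 6.316 in SMMCs. The donor medians in muscle were 0.531 in FAPs, 9.25 in SCs (1.185 to 31.25) and 9.612 in SMMCs (1.824 to 34.25), with donor 6 the lowest SC value. At P0 the summed ratio was 0.4906 in FAPs, 0.8486 in SCs and 1.781 in SMMCs. The share of free RNA in each value was not tested.

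SMMCs, which surround vessels, had 61.1 to 510.1 CPM of COL1A1 in muscle (median 268.1, n = 10) and 275.1 to 623.6 at P0 (median 485.2, n = 7), with a log2FC of 0.82 (adjusted p = 0.025) and overlapping ranges. COL1A2 had a log2FC of -0.70 (adjusted p = 0.00068) and COL5A2 one of 0.75 (adjusted p = 0.00069). None of 9 collagens tested passed both limits with edgeR, beside 36.4% of all genes called in either direction. Of these, 4 had an unadjusted p below 0.05, and DESeq2 called 0. With no filter on low counts COL1A1 was called at 1.05. In these SMMC sums, tenocyte markers ran from 339.1 to 1326 CPM in muscle and from 17.7 to 277.8 CPM at P0, and FAP markers had medians of 150.9 and 706.4 CPM. Myocyte markers ran from 76.51 to 384.7 and from 0 to 2.956 CPM, and SC markers had medians of 956.4 and 329.5 CPM. The SMMC markers themselves ran from 7028 to 24090 and from 1294 to 5900 CPM, and the part of any of these was not tested.

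From P0 to P2 most collagens rose in FAPs of the sorted FAP and of the unsorted cultures. Summed SMMC markers (RGS5, ACTA2, MYH11, CNN1 and NOTCH3) in FAPs also went from 36.1 to 75.3 CPM at P0 to 250.8 to 1104 CPM at P2, without overlap. Summed FAP markers at P2 ran from 9351 to 18530 CPM in sorted FAP and from 12120 to 13320 CPM in unsorted cultures. These lie above the P0 median given earlier, while the sorted SC cultures had 3399 to 4136 CPM. The part of either list in the rise was not tested. In the donors carried as sorted FAPs, COL1A1 was 687.7, 814.2 and 625.2 CPM at P0 and 4194, 8357 and 9576 CPM at P2 (donors 4, 7 and 8). The groups did not overlap, and the log2FC was 3.50 (SE 0.33, adjusted p = 0.00063). COL3A1 was 993.5, 1259 and 1195 CPM before and 3622, 6482 and 9469 after (log2FC 2.63, SE 0.35, adjusted p = 0.0015). COL5A1 rose by a log2FC of 1.96, COL5A2 by 2.01, COL6A1 by 1.15 and COL14A1 by 1.30. In all 8 of 10 collagens were called higher where 13.4% of all genes were, and 1 of the 8, COL12A1 (1.34), was no longer called without donor 7 (adjusted p = 0.077).

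Of the type VI chains, COL6A1 was called and the others were not. COL6A2 had a log2FC of 0.70 (SE 0.14, adjusted p = 0.0059). COL6A3 was 23.4, 29.2 and 33.6 CPM at P0 and 39.4, 24.2 and 22.7 CPM at P2, overlapping, with a log2FC of 0.11 (SE 0.23, adjusted p = 0.71). In the unsorted cultures COL1A1 of FAPs went from 436.8, 558.9 and 424.1 to 8764, 15170 and 8319 CPM (donors 1, 2 and 9; log2FC 4.70, SE 0.32, adjusted p = 3.7e-05). There 9 of 10 collagens were called higher, again beside 13.4% of all genes, and COL6A3 was again the gene not called (0.22, SE 0.12, adjusted p = 0.15). COL6A2, at 1.01, sat at the limit on size and was under it with DESeq2 (0.98), RLE factors (0.98), library totals (0.83) and without donor 2 (0.96).

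Fewer collagens were called in the later passages of sorted FAP cultures. COL1A1 stood at 15690, 22720 and 21150 CPM at P5, above all 3 P2 values, with a log2FC of 1.53 (adjusted p = 0.061), and all 10 collagens had a positive log2FC with a median of 0.88 against 0 over all genes. COL5A2 was the 1 gene called (log2FC 1.00, SE 0.18, adjusted p = 0.049), beside 0.39% of all genes called higher, and it was lost on leaving out any donor. With donor as a block 4 were called, COL1A1 (1.61, adjusted p = 0.0062), COL1A2 (1.45, adjusted p = 0.0068), COL3A1 (1.2, adjusted p = 0.011) and COL5A2. That fit called 646 of 11791 genes in either direction, where the main fit called 94. In the main edgeR fit 8 collagens had an unadjusted p below 0.05. DESeq2 called 3 collagens, beside 525 of all genes. At P8 against P5, COL1A1 was 5625, 15660 and 14400 CPM, lower in each donor, but its log2FC of -0.84 had an adjusted p of 0.25. None of the 10 was called with edgeR (0.328% of all genes in either direction), 2 had an unadjusted p below 0.05 and DESeq2 called 0.

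In SCs kept as sorted cultures, type I transcripts rose strongly. COL1A2 was 195.7, 325.5 and 272.8 CPM at P0 and 2052, 3900 and 1209 CPM at P2 (donors 5, 6 and 10; log2FC 3.17, SE 0.43, adjusted p = 0.0038). COL1A1 went from 194.3, 209.2 and 130.3 to 1105, 2538 and 432.6 CPM (log2FC 2.93, SE 0.59, adjusted p = 0.015). COL5A2 (1.28) and COL6A1 (1.23) were also called higher, making 4 of 10 beside 5.67% of all genes. COL6A3 was called lower (log2FC -1.83, adjusted p = 0.03; 4.09% of all genes were), but from 2.36, 1.25 and 0.936 CPM to 0.472, 0.382 and 0.315 CPM, that is from 7, 12 and 5 UMIs to 15, 9 and 10 UMIs at greater depth. Of these 5 calls 0 stayed without donor 5, and only COL1A2 stayed without donor 6. Without donor 10 COL1A1 and COL1A2 stayed, and COL5A1 (1.14, adjusted p = 0.023) was added. Markers of other cell types moved with the rise: over the SCs of all cultures, SMMC markers ran from 23.2 to 107.6 CPM at P0 and from 269.5 to 1235 CPM at P2. FAP markers ran from 979.0 to 2015 CPM (median 1426) and from 1172 to 6245 CPM (median 4282), and at P2 from 1172 to 2761 CPM in the sorted SC cultures. Tenocyte markers ran from 0 to 19.1 and from 25.1 to 55.8 CPM, and myocyte markers had medians of 0.675 and 81.95 CPM. Their part in the rise was not tested.

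By P5 the SCs of these cultures held 7118, 7137 and 6871 CPM of COL1A2 and 4099, 4242 and 2415 CPM of COL1A1. Against P2, COL1A2 had a log2FC of 1.60 (SE 0.40, adjusted p = 0.064). None of the 10 was called with edgeR (3.01% of all genes in either direction), although 4 had an unadjusted p below 0.05 and DESeq2 called 2, COL1A2 and COL6A1. COL3A1 in SCs of all cultures had a donor median of 672.1 CPM in muscle and 2383 CPM at P5 (n = 7), and no test was made between those stages.

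The cells labelled FAPs differed between cultures. In the sorted SC cultures at P5 (593, 31 and 70 FAPs of donors 5, 6 and 10), COL1A1 was 3485, 4023 and 4758 CPM, against 15690, 22720 and 21150 CPM in the FAPs of sorted FAP cultures. The groups did not overlap and the log2FC was -2.49 (SE 0.17, adjusted p = 5.9e-05). COL3A1 was 1478, 2004 and 2774 against 10060, 13970 and 15220 CPM (log2FC -2.86, SE 0.27, adjusted p = 0.00045). COL5A2 was 53.7, 61.0 and 69.8 against 264.3, 314.8 and 346.8 CPM (log2FC -2.54, SE 0.14, adjusted p = 1.4e-05). COL12A1 was 9.69, 4.52 (4 UMIs in donor 6) and 10.1 against 33.9, 39.8 and 43.9 CPM (log2FC -2.26, SE 0.20, adjusted p = 7.2e-05). With COL1A2 (-2.43) and COL5A1 (-1.35) this made 6 of 10 lower, where 7.9% of 11517 genes were called lower.

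The type VI chains were not called. COL6A1 was 382.7, 260.8 and 398.4 CPM in the sorted SC cultures against 341.1, 318.1 and 302.2 CPM in the sorted FAP cultures, overlapping, with a log2FC of -0.07 (SE 0.16, adjusted p = 0.78). COL6A2 had a log2FC of 0.01 (SE 0.14) and COL6A3 one of -0.55 (SE 0.27, adjusted p = 0.15). COL14A1, at -0.93 (SE 0.19, adjusted p = 0.0066), was called when donor 4 or donor 5 was left out. This comparison was chosen after the levels had been seen, so its p-values describe these donors and are not a test made in advance.

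**Figure D4:**
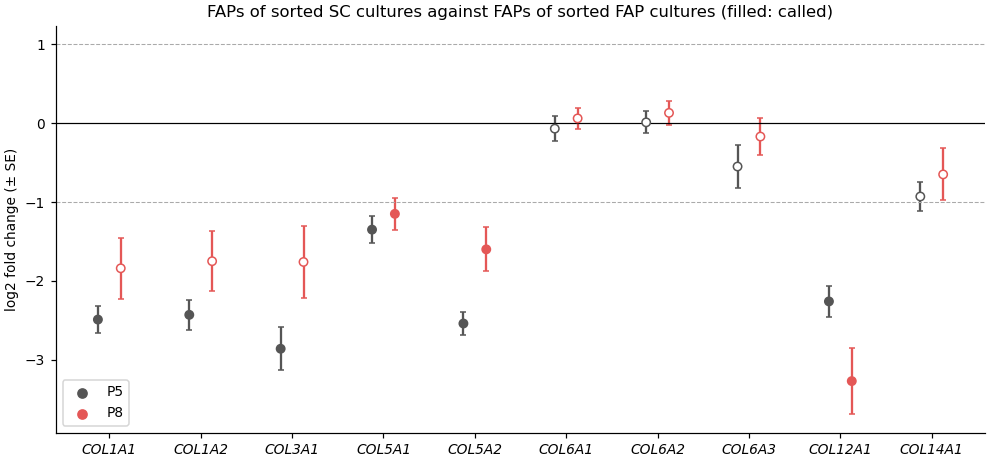
Log2FC with its standard error of each collagen gene in FAPs of sorted SC cultures against FAPs of sorted FAP cultures, at P5 and at P8, with filled points for called genes. At P5 the fibrillar chains lie between -2.86 and -1.35, while COL6A1 and COL6A2 lie at -0.07 and 0.01.

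Other transcripts moved with this difference. The summed FAP markers ran from 3348 to 4265 CPM in FAPs of the sorted SC cultures at P5 and from 16660 to 20330 CPM in those of the sorted FAP cultures. The summed SC markers ran from 15.99 to 100.5 CPM and from 18.6 to 21.8 CPM, and in the SCs of the sorted SC cultures from 801.7 to 1229 CPM. Their part in the difference was not tested. SCs of the same cultures had more COL1A2 (6871 to 7137 CPM) than the cells labelled FAPs beside them (2589 to 3861 CPM). The other abundant chains overlapped, with COL1A1 at 2415 to 4242 CPM in SCs and 3485 to 4758 in FAPs. COL3A1 was at 2297 to 2549 CPM in SCs and 1478 to 2774 in FAPs. At P0 the donors later carried as sorted SCs had 2551, 1385 and 1870 CPM of COL3A1 in FAPs, above the 993.5, 1259 and 1195 CPM of those later carried as sorted FAPs. For the 10 collagens together the same donors' shares at P0 overlapped, at 0.491%, 0.338% and 0.399% against 0.288%, 0.341% and 0.303%.

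At P8 the same contrast gave COL1A1 at 3420, 3474 and 3539 CPM in sorted SC cultures and 5625, 15660 and 14400 CPM in sorted FAP cultures (log2FC -1.84, SE 0.39, adjusted p = 0.071), with no overlap. COL12A1 was 8.43, 4.12 and 6.39 against 33.6, 60.1 and 74.9 CPM (log2FC -3.27, SE 0.42, adjusted p = 0.024). COL5A1 (-1.15, adjusted p = 0.036) and COL5A2 (-1.60, adjusted p = 0.04) were also called, making 3 of 10 lower beside 1.05% of all genes. Without donor 4 there were 6 calls and without donor 5, 6, 7, 8 or 10 there were 0, and DESeq2 called 6. COL6A1 (0.06) and COL6A2 (0.13) again lay near 0.

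FAPs of sorted FAP cultures were also set against FAPs of unsorted cultures. At P2 none of the 10 was called with edgeR (0.017% of all genes in either direction), 1 had an unadjusted p below 0.05, COL5A1 at -0.66, and DESeq2 called 0. At P5 COL6A3 was 51.5, 45.2 and 43.4 CPM in sorted FAP cultures and 10.9, 9.88 and 15.6 CPM in unsorted cultures (log2FC 1.88, SE 0.17, adjusted p = 0.019), where 0.359% of all genes were called higher. The adjusted p was 0.057 without donor 7 and 0.074 without donor 8. The summed FAP markers in the same cells ran from 16660 to 20330 CPM in sorted FAP cultures and from 6558 to 12430 CPM in unsorted cultures, without overlap, and their part in the difference was not tested. COL1A1 had a log2FC of 0.44 (SE 0.25, adjusted p = 0.33).

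Calves and adults were compared in FAPs. In muscle, COL1A1 had a mean of 4428 CPM in 5 calves and 2459 CPM in 5 adults (log2FC 0.95, SE 0.32, adjusted p = 0.17), with values of 2235 to 6155 and 1771 to 3801 CPM that overlapped. COL14A1 had a mean of 363.1 CPM in calves and 249.4 in adults (log2FC 0.66, SE 0.20, adjusted p = 0.079). None of the 10 was called with edgeR (1.32% of all genes in either direction), 5 had an unadjusted p below 0.05 and DESeq2 called 0. With sex as a covariate COL1A1 was called (1.18, adjusted p = 0.0067). Adult donors 6 and 8 and calf donor 10 were male, and the other donors female. At P0 none of the 10 was called (0% of all genes), 0 had an unadjusted p below 0.05 and DESeq2 called 0.

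Ratios of UMIs within a pseudobulk, which do not depend on library depth, shifted along the course. COL1A1 per COL1A2 in FAPs had donor medians of 0.752 in muscle, 1.01 at P0, 1.22 at P2, 1.35 at P5 and 1.23 at P8, and the 9 donors of P5 (1.23 to 1.42) lay above the 10 of muscle (0.554 to 0.819). In SCs it stayed lower, with medians of 0.421, 0.491, 0.548, 0.501 and 0.648. At P5 the FAPs of the 3 kinds of culture had medians of 1.348 (sorted FAP), 1.346 (sorted SC) and 1.32 (unsorted). COL3A1 per COL1A1 in FAPs went from 2.69 in muscle to 1.83 at P0, 0.754 at P2 and 0.583 at P5, and in SCs from 7.17 at P0 to 1.15 and 0.926. In muscle SCs it had a median of 16.3 over 8 donors, from 4.49 to 55.5, which overlapped P0 (4.32 to 11.8), and some of these donors held few COL1A1 UMIs. COL6A3 per COL6A1 in FAPs had medians over all cultures of 0.451, 0.251, 0.122, 0.0909 and 0.0687, and the cultures differed. Its medians at P2, P5 and P8 were 0.104, 0.144 and 0.0772 in sorted FAP cultures, 0.116, 0.0909 and 0.0687 in sorted SC cultures, and 0.160, 0.0408 and 0.0496 in unsorted cultures. These are transcript ratios of 3′ counts, not ratios of protein chains, and no test was made of them.

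**Figure D5:**
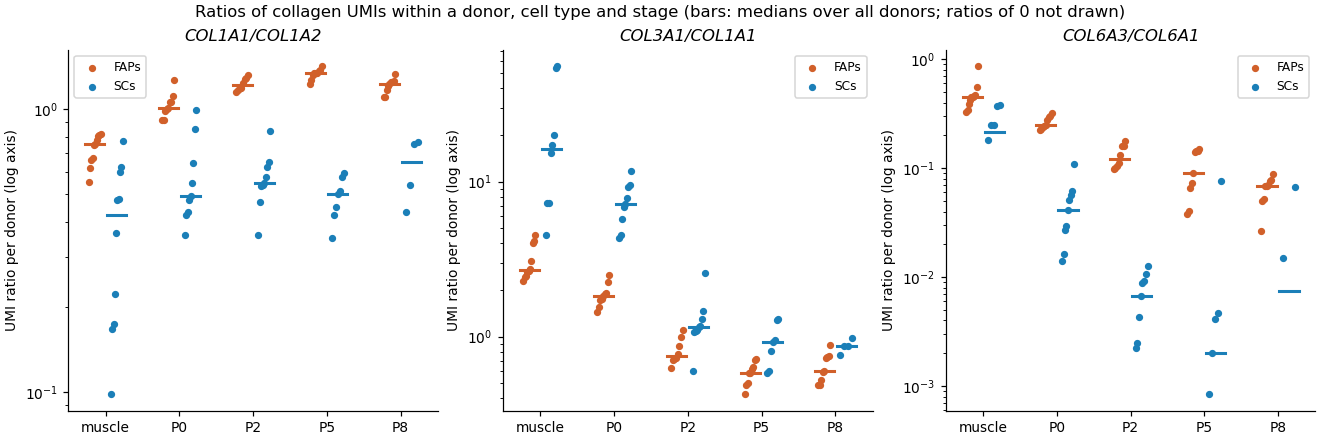
Ratios of UMIs between collagen chains per donor (log axis) in FAPs and SCs from muscle to P8, with the donor median as a line. COL1A1 per COL1A2 in FAPs goes from 0.752 in muscle to 1.35 at P5, while COL6A3 per COL6A1 goes from 0.451 in muscle to 0.0687 at P8.

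Genes with a pattern like the summed collagens were sought over 19 combinations of cell type and stage and 10781 genes, by Pearson's r of log2(CPM + 1) of donor medians. The 5 genes with the highest r outside the set were LOX (0.965), which cross-links collagen and elastin, CERCAM (0.946), EFEMP2 (0.946), which serves elastic fibre assembly, SRPX (0.941) and TXNDC5 (0.937), a protein disulfide isomerase of the endoplasmic reticulum. LOX in FAPs had medians of 85.7, 20.8, 72.1, 119.7 and 106.1 CPM from muscle to P8. Among the collagens themselves r with the sum ran from 0.632 for COL12A1 and 0.654 for COL6A3 to 0.987 for COL3A1. Each collagen is part of that sum, to which the abundant chains add most, so a high r of those chains is partly built in. The points share libraries and donors.

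The genes around collagen followed in part. In FAPs from muscle to P0, 14 of 15 fibril assembly partners were called lower (median log2FC -4.13), among them podocan PODN (-9.42) and asporin ASPN (-9.38). Of the enzymes and chaperones that fold, cut and cross-link collagen, 12 of 26 tested were lower and 0 higher (median -0.61), including the glycosyltransferase COLGALT2 (-5.93) and the lysyl oxidase relative LOXL4 (-4.26). Among collagen receptors 3 of 4 tested were lower, ITGA11 (-6.96) and DDR2 (-2.49) with them. Of the turnover genes, 3 of 9 tested were lower, such as the uptake receptor MRC2 (-4.16) and the protease FAP (-2.45), and none that had UMIs in muscle was called higher. The collagenase MMP1 (mean 17.8 CPM at P0) and the gelatinase MMP9 (13.7 CPM) were at 0 UMIs in muscle FAPs and passed the filter through P0, so they are not counted as calls. Among other collagens 8 of 10 tested were lower, led by COL6A6 (-7.46) and COL15A1 (-6.68), and 2 were higher, COL13A1 (2.24) and COL27A1 (1.69). The background is the 22.5% lower and 20.9% higher of all genes. Genes that passed the filter on low counts through muscle alone were not set apart among the lower ones. The counts of lower genes may therefore include such genes, and the largest falls may rest on few UMIs at P0.

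From P0 to P2 in the donors carried as sorted FAPs, 13 of 15 fibril partners were called higher (ASPN 5.61, MFAP5 4.91), as were 15 of 27 processing genes (the prolyl hydroxylase P4HA3 3.87, LOXL4 2.59). COL11A1, a minor fibrillar chain that can join type V, rose from a mean of 2.95 to 100.6 CPM (log2FC 5.23) and again to 542.6 CPM at P5 (log2FC 2.54). Among other collagens 4 of 11 passed both limits as higher, and 2 were lower, COL13A1 (-3.59) and COL18A1 (-2.56). COL6A5, 1 of the 4 higher, was at 0 UMIs at P0 and passed the filter through P2, so it is not counted as a call. The turnover list gave 5 higher of 10 and MMP3 lower (-4.66), and the receptor list 1 higher of 7, ITGA1 (3.63), and 2 lower. Of all genes 13.4% were called higher and 9.37% lower.

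FAPs of the sorted SC cultures at P5 had 10 of 15 fibril partners called lower than FAPs of the sorted FAP cultures, with PODN (-4.74) and ASPN (-4.34) leading, and 1 higher, MFAP5 (1.16). Of 27 processing genes 8 were lower, among them P4HA3 (-2.14) and the procollagen peptidase enhancer PCOLCE (-1.84), and 1 was higher, PCOLCE2 (1.41). Other collagens gave 3 of 10 lower, COL6A5 (-5.31) and COL11A1 (-3.58) with them, and 2 higher, where 7.9% of all genes were lower and 7.99% higher. In SCs from muscle to P0 the processing list moved both ways, with 7 higher and 7 lower of 22 tested, where 15.8% of all genes were higher and 18.5% lower.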

How the data were processed

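Single-cell 3′ libraries (10x v3.1) of 5 Timepoints were used. Per the labels and the submitters' processing notes, the authors aligned reads with Cell Ranger 6.0.1 to ARS-UCD1.2 and deposited raw UMI counts per gene and cell. Donor and cell type of each cell came from the authors' deposited table of cells, in which donors had been assigned by genotype. All cells of that table carry the singlet label of the genotype assignment, which does not mark doublets of the same donor, and no other doublet caller was run. A further 11 columns of that table, the combined normalised table and the separate tables per library were not used.

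Counts were summed per donor, cell type and Timepoint, and 159 of 218 sums with at least 10 cells entered tests. edgeR 4.0.16 (TMM, filterByExpr, robust quasi-likelihood F test, 2-sided) was fitted on all genes, with Benjamini-Hochberg adjustment, in 17 comparisons, of which 2 (sorted SC against sorted FAP cultures) were added after values had been seen. Standard errors are the absolute log2FC over the square root of F. DESeq2 1.42.0, RLE factors, library totals, no filter, at least 30 cells, thinning, a donor block and leaving out each donor were alternatives. P-values measure the spread between donor animals. The main fits hold no donor term, so sums of 1 animal at 2 stages or in 2 cell types are treated as independent. Donor numbers pair the Timepoints because they are the same animals. Deviations from the group means correlated at -0.14 to 0.18 between muscle and P0 and at 0.11 to 0.62 between passages. The scripts were tested on simulated data.

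The text names the 10 collagens, the 5 genes most like their sum (donor medians, at least 10 CPM in 1 of the combinations) and, from lists of processing enzymes, fibril assembly partners, turnover genes, receptors and other collagens, those with the largest absolute log2FC. The members and lists were chosen with earlier results of these data known. No coordinates or sequences are given, since the gene table at hand is of another assembly.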

Additional observations from a re-analysis of the deposited data

Results flagged for a closer look

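Each collagen was screened for a donor far from the others in every cell type with 4 to 10 donors in muscle or at P0. Over 130 sets of values 24 such donors were found. The cut-off flags about 1 in 20 sets of normally spread values by chance, a rate that does not hold for sets of few UMIs. After P0 a culture held at most 3 donors, and no screen was made. In FAPs, donor 3 had 599.0 CPM of COL6A3 in muscle (next 375.8) and donor 5 had 75.41 CPM of COL6A2 at P0 (next 108.2). In SCs of muscle, donor 7 had 1647 CPM of COL3A1 (next 1002) and 79.08 CPM of COL6A2 (next 36.68), and donor 5 had 24.46 CPM of COL6A3 (next 7.31) and 30.57 CPM of COL14A1 (next 15.51). In VECs of muscle, donor 8 had 30.16 CPM of COL6A1 (next 14.54) and 48.25 CPM of COL6A2 (next 14.03). In VECs at P0, donor 9 had 33.72 CPM of COL5A2 (next 19.5) and donor 6 had 4.096 CPM of COL6A3 (next 1.818). In SMMCs of muscle, donor 5 had 74.05 CPM of COL14A1 (next 30.76).

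The remaining 13 were in immune and lymphatic endothelial cells. In monocytes/macrophages of muscle, donor 5 had 145.6 CPM of COL1A1 (next 38.08) and 160.0 CPM of COL1A2 (next 64.26), and donor 7 had 4.76 CPM of COL5A2 (next 0), 23.8 CPM of COL6A2 (next 8.65) and 14.28 CPM of COL6A3 (next 5.766). In those of P0, donor 9 had 45.68 CPM of COL6A3 (next 11.95). In lymphocytes of muscle, donor 6 had 499.4 CPM of COL1A2 (next 254.5) and 34.44 CPM of COL12A1 (next 0), and donor 7 had 37.71 CPM of COL6A1 (next 17.22), 28.28 CPM of COL6A3 (next 10.65) and 56.56 CPM of COL14A1 (next 10.65). In lymphatic endothelial cells, donor 10 had 14.86 CPM of COL1A1 in muscle (next 0) and donor 2 had 17.13 CPM of COL14A1 at P0 (next 5.065). Several of these values rest on few UMIs. They were 1 UMI for COL1A1 and 3 for COL14A1 in lymphatic endothelial cells, and 2 for COL12A1 and 3 for COL6A3 in lymphocytes. In monocytes/macrophages they were 2 for COL5A2 in muscle and 4 for COL6A3 at P0.

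The change from muscle to P0 differed between FAPs and SCs by an interaction term for 6 collagens that passed the filter in SCs alone. The differences in log2FC were -3.17 for COL1A1, -3.45 for COL1A2, -3.16 for COL3A1, -1.38 for COL5A1, -3.15 for COL6A1 and -3.60 for COL6A2. The last 2 genes had 84 UMIs each in all muscle SCs together. The fit also gave -1.80 for COL6A3, -4.11 for COL12A1 and -3.86 for COL14A1, but these were below the filter in SCs alone, with 15, 13 and 23 UMIs in all muscle SCs together, and carry no support. COL6A3 was not called after thinning (-1.23, adjusted p = 0.64 by edgeR).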

How the results depend on the processing

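All 10 collagens were called in FAPs from muscle to P0 under each of the alternatives run for it, and the 9 calls on the difference between FAPs and SCs, 3 of them on genes below the filter in SCs alone, numbered 7 after thinning and 10 with at least 30 cells. Over single collagens and alternatives, 294 called values stayed called and 13 did not, and with a donor left out 95 stayed and 34 did not. Of the values not called, 18 became called under another setting and 7 with a donor left out. Causes of these changes were not tested.

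Counts of called collagens moved as follows. In SCs from muscle to P0, thinning gave 1 call in place of 2, DESeq2 and RLE factors gave 3 each (COL6A2 added), and without the filter there were 3 others (COL6A2, COL12A1 and COL14A1) and neither COL5A1 (-0.86) nor COL5A2 (-0.99). Without the filter on low counts, VECs gave 2 calls (COL14A1 at -1.57 was added), SMMCs 1, and SCs from P0 to P2 of sorted SC cultures 2. For P5 against P2 in FAPs of sorted FAP cultures, DESeq2 gave 3 calls, RLE factors 0, library totals 0 and leaving out a donor 0 each time. For P2 against P0 in SCs of sorted SC cultures, library totals gave 4 in place of 5 and leaving out a donor 0 to 3. For P2 against P0 in FAPs of unsorted cultures, DESeq2, RLE factors, library totals and leaving out donor 2 gave 8 in place of 9. In FAPs of sorted FAP cultures leaving out donor 7 gave 7 in place of 8. At P5 between sorted SC and sorted FAP cultures, leaving out donor 4 or 5 gave 7 in place of 6. For P5 against P2 in those SCs, DESeq2 gave 2 and leaving out a donor 0 to 1. Sorted FAP against unsorted cultures at P5 gave 0 to 1 with a donor left out. Sex as a covariate gave 1 call between calves and adults in muscle. At P8 between sorted SC and sorted FAP cultures, DESeq2 gave 6 and leaving out a donor 0 to 6.

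With donor as a replicate block, the pairing gave 4 collagen calls in place of 1 for P5 against P2 in FAPs. It gave 3 in place of 2 for SCs from muscle to P0 (COL1A1 added, at 1.08), and it changed the number of collagen calls in no other comparison. Over all genes in FAPs of sorted FAP cultures, the block gave 646 calls in place of 94 for P5 against P2 and 465 in place of 37 for P8 against P5.

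Shares of cells at 1000 UMIs were lower than at 1500. COL3A1 was seen in 96.74% and 65.84% of FAPs (muscle and P0), 45.1% and 56.27% of SCs, and 6.88% and 14.68% of VECs. COL6A3 was seen in 21.6% and 3.284% of FAPs and in 0.1885% of muscle VECs. COL12A1 at P0 was seen in 1.425% of FAPs, 2.235% of SCs and 12.76% of VECs. Levels and ratios moved by less than 1 SD.

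In 39 cases a log2FC that was not called changed sign, to at most 0.4 in size. From muscle to P0, COL3A1 gave -0.03 in VECs after thinning and, in SMMCs, 0.21 without the filter, 0.01 with at least 30 cells and 0.09 with the donor block, where COL6A2 gave 0.08 without the filter. With donors left out from P0 to P2, COL6A3 gave -0.29 in FAPs and COL12A1 gave -0.02 and -0.12 in SCs. From P2 to P5 in SCs, COL6A3 gave -0.40 and COL12A1 gave -0.00 with a donor left out, and COL12A1 gave -0.03 with library totals. Between sorted FAP and unsorted cultures at P2, COL3A1 gave 0.16 and 0.05, COL6A1 0.00 and 0.00, COL12A1 0.02 and COL14A1 0.05, 0.06 and 0.12, and at P5 COL6A2 gave -0.04. Between calves and adults, COL6A1 gave -0.11, -0.01, -0.02, -0.05 and -0.02 in muscle and 0.01 and 0.01 at P0, and COL14A1 gave -0.05 at P0. Between sorted SC and sorted FAP cultures, COL6A1 gave 0.13 and 0.10 at P5 and -0.07 at P8, COL6A2 gave -0.00, -0.00, -0.02, -0.00, -0.09, -0.03 and -0.12 at P5, and COL6A3 gave 0.02 at P8.

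Groups of 3 donors and, in muscle, sums as small as 78426 UMIs limit the precision of small differences. Each stage was taken as 1 library, and the sorted SC cultures held as few as 31 FAPs at P5.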
